A study of Mus musculus with 80 samples.

Results

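Clock output factors are the genes through which the hepatic circadian clock passes time of day on to metabolism, and 9 of them were followed here through a fast: Dbp, Tef, Hlf, Nfil3, Bhlhe40, Bhlhe41, Ciart, Noct and Usp2. The members were chosen by gene symbol in the table of gene counts. All 9 were found among 78275 listed genes, and all 9 were among the 21187 genes with enough counts to be tested.

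In the mammalian clock, BMAL1 and CLOCK bind E-boxes and drive transcription, and the period and cryptochrome proteins then repress them. Several E-box targets are themselves transcription factors and carry the rhythm to genes further downstream. DBP, TEF and HLF form the PAR bZIP family, which activates genes through D-box elements, and NFIL3 (E4BP4) is a bZIP repressor that competes for the same elements. In the liver, PAR bZIP factors are known for their control of detoxification enzymes. BHLHE40 (DEC1) and BHLHE41 (DEC2) are basic helix-loop-helix repressors that act at E-boxes, and CIART (CHRONO) represses BMAL1 and CLOCK directly. Noct encodes nocturnin, a phosphatase of NADP(H) with a strong nocturnal rhythm in liver, and Usp2 encodes a deubiquitinase under clock control.

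The mice were C57BL/6J, 8 to 12 weeks old, and were held in 12 h light and 12 h darkness for 10 days before release into constant darkness. Control mice were fed ad libitum, whereas fasted mice lost access to food at circadian time (CT) 10. Livers were taken every 4 h from CT8 to CT44 from 2 males and 2 females per feeding group and time, giving 40 control and 40 fasted libraries. The fasted group at CT8 had therefore not yet been fasted, and CT12 to CT44 correspond to 2 to 34 h without food. Each library is polyadenylated RNA from whole liver of a wild-type animal, so that fewer cells of a type and less RNA per cell cannot be told apart in any value below.

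The libraries held between 25534900 and 59927800 gene counts, with a median of 42303900. Groups and sexes were taken from the sample titles, because another label field disagreed with the titles on sex in 40 libraries and on feeding in 40. Female-specific Xist exceeded male-specific Ddx3y in 40 of 40 libraries titled female, and Ddx3y exceeded Xist in 40 of 40 titled male. The fasting response was present, with Fgf21, a hepatic fasting hormone, 3.94 higher on the log2 scale (standard error 0.26), and Srebf1, a driver of lipid synthesis, 3.14 log2 lower (difference -3.14, standard error 0.090) over CT12 to CT44. Hepatocyte markers were abundant in all libraries, whereas the summed lymphocyte markers reached at most 6.13 CPM (counts scaled to the size of the library). In 1 library, control CT8 female 2, the ribosomal gene Rn18s held 31.3% of the counts, compared with a median of 0.101%.

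The 9 genes lie on 7 chromosomes. In GENCODE M21 coordinates of the GRCm38 build, Dbp occupies chr7:45705088-45710203, Tef chr15:81802421-81826863 and Usp2 chr9:44067021-44095627, all on the plus strand. Hlf lies on the minus strand of chr11:90336536-90390895, and Nfil3 on the minus strand of chr13:52967209-52981073. Bhlhe40 (chr6:108660629-108666925, plus strand) and Bhlhe41 (chr6:145858243-145865558, minus strand) share a chromosome, as do Ciart (chr3:95878503-95882251, minus strand) and Noct (chr3:51224447-51251644, plus strand). Dbp overlaps exons of Sphk2 on the opposite strand by 539 bp, and Bhlhe41 overlaps Gm43909 on the opposite strand by 1280 bp. Shorter overlaps on the opposite strand join Tef to Gm17597 (193 bp), Usp2 to Gm49380 and Gm39325 (200 bp each) and Bhlhe40 to 0610040F04Rik (118 bp). Whether the counting used strand was not stated, so reads in these stretches may belong to either gene.

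Sequences just upstream of the transcription start are printed here for members in which a clock element was found, other than the matches in Nfil3 and in the first Tef promoter, which lie wholly within annotated exons. They are shown because E-boxes and related elements are the textbook route by which the clock reaches such genes. They come from RefSeq promoters of the GRCm38.p6 build, each running 250 bases before the start to 50 after it. Elements were searched on both strands, namely the E-box CACGTG, the D-boxes TTATGTAA and TTATGCAA, the core letters AGGTCA of the ROR element, and the cyclic AMP response element TGACGTCA. Capitals mark the matched element, and each sequence is written 5′ to 3′ on the strand of its gene.
Tef, second promoter, chr15:81811256-81811301: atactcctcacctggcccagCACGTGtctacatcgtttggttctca
Ciart, chr3:95882319-95882364: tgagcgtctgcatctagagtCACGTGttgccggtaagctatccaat
Ciart, chr3:95882247-95882306: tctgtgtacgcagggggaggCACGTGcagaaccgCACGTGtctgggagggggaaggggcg
Bhlhe41, chr6:145865548-145865593: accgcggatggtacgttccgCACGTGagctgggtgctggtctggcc
Hlf, chr11:90390918-90390946: tcggcgcgcggtgcgggcccTGACGTCAc

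Ciart carried 3 E-boxes in its window, Bhlhe41 1 and Tef 1 in each of 2 promoters, compared with an E-box in 7.15% of 32851 mouse promoters of the same length. Hlf carried a cyclic AMP response element, found in 1.79% of promoters, and Nfil3 carried the ROR core, found in 16.3%. None of these letters was present in the windows of Dbp, Noct and Usp2. The D-boxes, present in 0.938% and 0.743% of promoters, were in none of the windows searched. Bhlhe40 had no promoter entry and was not searched. A match is a description of letters in this window and not of a bound site.

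In livers fed ad libitum, all members cycled, and their amplitudes differed widely. Dbp ranged from 1.02 ± 0.15 CPM (SD, n = 4) at CT24 to 211 ± 12.7 CPM at CT32, a 208-fold range of group means. Ciart spanned 95.8-fold, from 0.304 ± 0.107 CPM at CT24 to 29.1 ± 8.33 at CT36. Bhlhe41 spanned 19.5-fold, Usp2 19.1-fold, Noct 11.7-fold, Tef 8.25-fold and Nfil3 5.65-fold. Bhlhe40 covered 2.83-fold and Hlf 1.65-fold, so that the 3 PAR bZIP genes differed from one another in their range over the day. In the fasted series Ciart spanned 26.1-fold. The figures of 85.5-fold for Dbp and 6.41-fold for Bhlhe40 in that series count their highest mean at CT8, before food was removed.

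**Figure D1:**
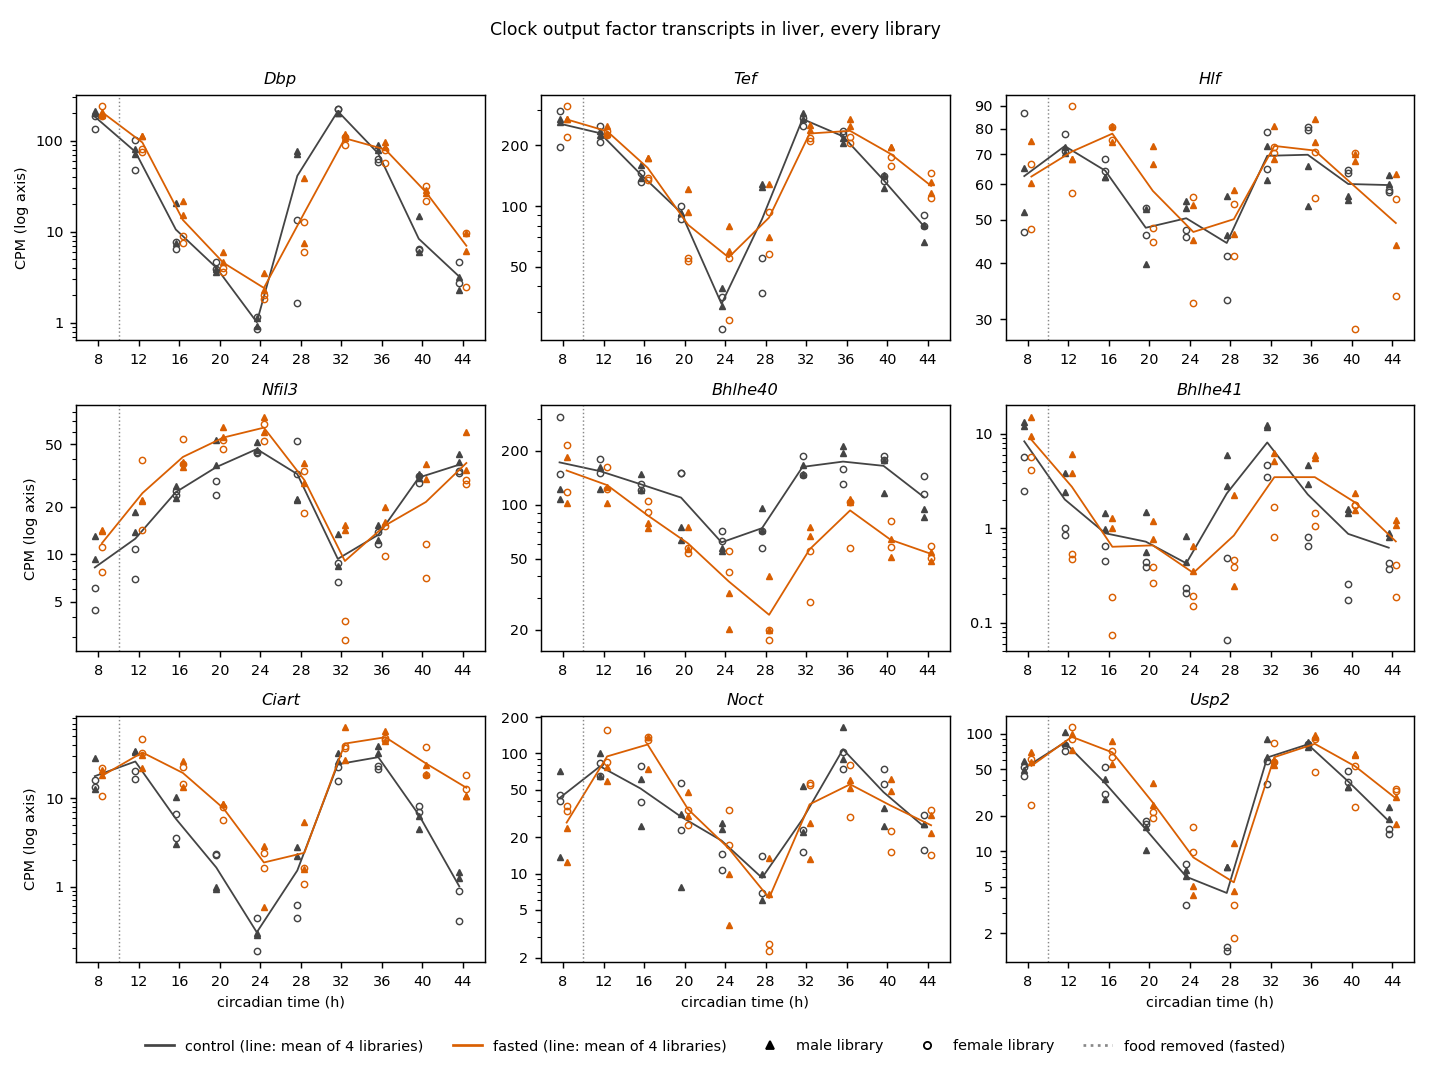
Expression of the 9 clock output genes in each of 80 livers (points, CPM on a log axis) against circadian time in hours, in control and fasted mice, with lines through the group means (n = 4). Fasted Bhlhe40 sits under control from CT16 onwards, and fasted Ciart troughs lie above control, as at CT44 with 13.1 against 1.01 CPM.

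Averaged over CT12 to CT44, 5 members were higher in fasted livers, 1 was lower, and 3 did not pass the test (edgeR quasi-likelihood test, adjusted p under 0.05). Among all tested genes, 28.8% were higher and 33.6% lower, 62.4% in total, so that the share of members called was close to that background. The median change of the 9 members was 0.19 on the log2 scale, compared with -0.03 for all genes. Ciart rose by 1.70 log2 (standard error 0.13, adjusted p = 3.5e-16) and was higher at 9 of 9 times. Bhlhe40 fell by 0.99 log2 (standard error 0.072, adjusted p = 3.7e-16) and was lower at 9 of 9 times. These 2 were also the only members that passed when a change of at least 1.5-fold was required, as 2556 of the 21187 tested genes did.

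The other 4 called members moved less. Usp2 rose by 0.41 log2 (standard error 0.090, adjusted p = 0.00011), Dbp by 0.37 (0.13, adjusted p = 0.011), Nfil3 by 0.20 (0.073, adjusted p = 0.016) and Tef by 0.19 (0.055, adjusted p = 0.0026). The Dbp mean did not hold without male replicate 2 (0.25, adjusted p = 0.221), nor did the Tef mean without male replicate 1 (adjusted p = 0.058). The Nfil3 mean was lost in 3 of 4 such fits (adjusted p up to 0.193). Hlf differed by 0.04 (0.061, adjusted p = 0.606), Noct by -0.07 (0.14, adjusted p = 0.698) and Bhlhe41 by -0.15 (0.14, adjusted p = 0.363). A test for a difference at any of the 9 times called 7 of 9 members, compared with 61.6% of genes, and left out Hlf (adjusted p = 0.591) and Noct (adjusted p = 0.052). Noct passed that test without male replicate 1 (adjusted p = 0.018) and Hlf without female replicate 2 (adjusted p = 0.021), whereas Tef (0.069) and Usp2 (0.264) did not pass without male replicate 1, nor Nfil3 (0.058) and Usp2 (0.056) without male replicate 2. Bhlhe41 thus passed the joint test (adjusted p = 0.00036) with a mean near 0, and its sign changed with time.

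At single times, 27 of 81 member comparisons passed. At CT8, before food was removed, 0 of 9 members passed by edgeR, compared with 1.38% of genes, and the libraries overlapped for all 9 (separate groups occurred in 2.15% of genes). At that time 1 member, Nfil3, had an unadjusted p under 0.05, and 2 passed when genes of low count were kept in the table. At CT12, 1 of 9 members was called, compared with 1.59% of genes, and all 9 still overlapped (5.91% of genes did not). At CT16 there were 5 (23.4% of genes), at CT20 4 (36.6%), and at CT28 1 (21.2%). At CT24, 2 were higher (11.3% of genes) and 1 was lower (12.7%). The second day gave 2 at CT32 (17.6% of genes), 1 at CT36 (26.8%), 6 at CT40 (40.0%) and 4 at CT44 (39.3%). Most member calls fell at CT16, CT20, CT40 and CT44, and 3 of these times, CT20, CT40 and CT44, also had the highest share of genes called.

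**Figure D2:**
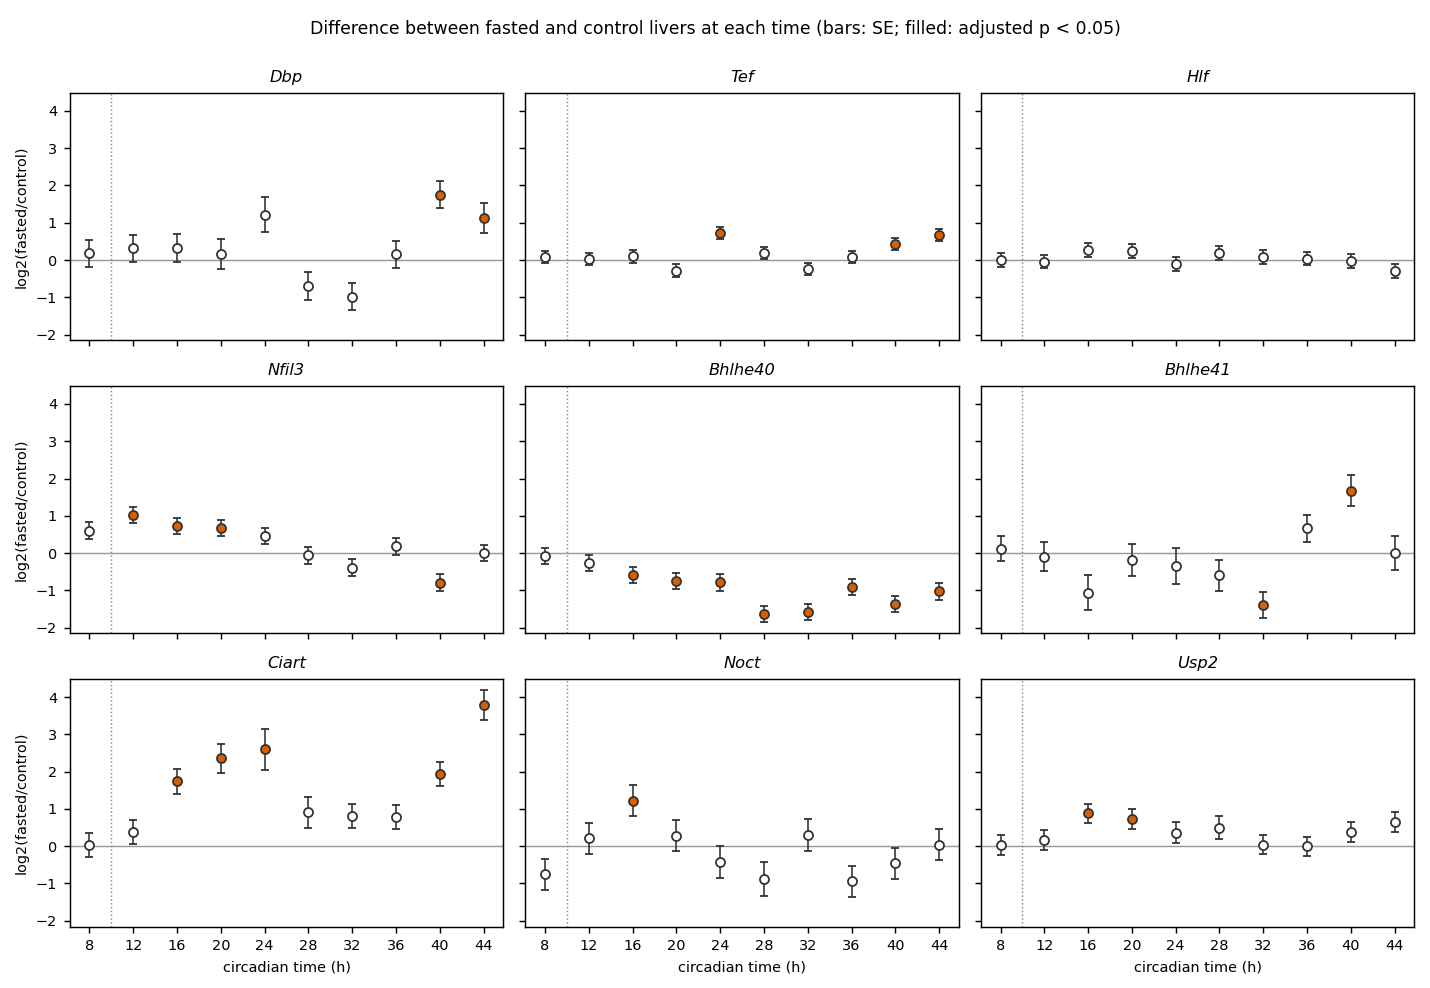
Fasted minus control difference (log2) of each member at CT8 to CT44, with error bars of 1 standard error, filled points where the adjusted p is under 0.05 and a dotted line at food removal. Ciart lies above 0 at every time after CT8 and reaches 3.78 at CT44, Bhlhe40 lies below 0 after CT8, and Dbp and Bhlhe41 change sign between CT32 and CT40.

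Dbp, the PAR bZIP activator with the largest amplitude, was called higher in fasted livers at CT40 and CT44. At CT32 control livers held 201, 200.1, 222 and 223 CPM and fasted livers 119, 106, 112 and 90.4. Every fasted library was below every control library, as in 9.12% of genes at this time. The difference was -0.99 log2 (standard error 0.36), which did not pass in the fit to all libraries (adjusted p = 0.051) and had an adjusted p of 7.4e-05 in a fit to the 8 libraries of that time. Control livers at CT40 held 14.8, 6.03, 6.43 and 6.31 CPM, compared with 28.7, 27.0, 31.8 and 21.8 in fasted livers. All fasted libraries were above control here, as in 11.7% of genes, and the rise of 1.75 log2 passed (standard error 0.37, adjusted p = 0.00023).

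The lowest Dbp values were at CT24, where control livers held 1.12, 0.924, 1.17 and 0.853 CPM and fasted livers 3.55, 2.28, 1.85 and 2.00. Fasted livers were again all above control, as in 9.29% of genes, by 1.21 log2 (standard error 0.47), which did not pass in the fit to all libraries (adjusted p = 0.0504) and had an adjusted p of 0.0046 in the 8 libraries alone. Dbp rose by 1.12 log2 at CT44 (standard error 0.40, adjusted p = 0.023), where the groups overlapped and the call was lost in 3 of 4 fits without a replicate. The antisense neighbour Sphk2 gave between 11.4% and 5590% of the Dbp counts of a library and rose at CT24 (0.86 log2, adjusted p = 2.1e-06), at CT40 (0.75 log2) and, where Dbp was lower, at CT32 (0.56 log2, from 43.6 to 64.7 CPM). Its part in the Dbp values was not tested.

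At CT28, the time at which Dbp begins its second climb, control livers differed among themselves. The 2 control males held 71.8 and 78.1 CPM and the 2 control females 13.5 and 1.66. Fasted males held 7.46 and 38.8 CPM and fasted females 12.7 and 5.97. The control value at this time therefore rested on the males, and the feeding groups overlapped (difference -0.70 log2, adjusted p = 0.190). Without control CT28 female 2 the difference was -1.10 and passed (adjusted p = 0.023), and so did those at CT24 (adjusted p = 0.019) and CT32 (adjusted p = 0.020). That library was left out after its value was seen, and leaving out the lowest control value lowers the CT28 difference by construction.

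Tef, a PAR bZIP activator with a shallower rhythm, was called higher in fasted livers at CT24, CT40 and CT44, and its groups overlapped around its peak. The difference at CT20 was in the other direction and did not pass (-0.28 log2, adjusted p = 0.179). Control livers at CT44 held 66.1, 80.9, 80.1 and 90.6 CPM, and fasted livers held 133, 116, 146 and 110.4. All 4 fasted libraries exceeded all control libraries (13.7% of genes), and Tef rose by 0.67 log2 (standard error 0.16, adjusted p = 0.00097). Tef also rose at CT40 (0.43 log2, adjusted p = 0.034), where all fasted libraries were above control (11.7% of genes). At CT24 it rose by 0.72 log2 (adjusted p = 0.00087), and the groups overlapped. Without a replicate the CT40 call was lost in 3 of 4 fits (adjusted p up to 0.234), and those at CT24 and CT44 were lost in 1 each, without male replicate 1 (adjusted p = 0.155 and 0.075). Near the peak at CT32 control livers averaged 271 ± 17.3 CPM and fasted livers 229 ± 19.0, a difference that did not pass (adjusted p = 0.344).

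Hlf, whose control rhythm was shallow, passed at none of the times by edgeR, with adjusted p from 0.227 to 1 and 0 of 9 unadjusted p under 0.05. Its groups separated at CT16, as in 9.77% of genes, where control livers held 62.5, 62.2, 68.5 and 64.4 CPM and fasted livers 81.2, 74.5, 80.5 and 75.6. The difference was 0.28 log2 (standard error 0.18, adjusted p = 0.312), and 0.031 in the 8 libraries of CT16 alone. At CT40 the differences of the 3 PAR bZIP genes were 1.75 for Dbp, 0.43 for Tef and -0.04 for Hlf on the log2 scale.

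Nfil3, the repressor of the same D-box elements, peaks in antiphase to Dbp. It rose early in the fast, by 1.02 log2 at CT12 (standard error 0.22, adjusted p = 0.0087), 0.74 at CT16 (adjusted p = 0.010) and 0.67 at CT20 (adjusted p = 0.013). At CT16 control livers held 27.2, 22.9, 23.7 and 25.4 CPM and fasted livers 38.6, 36.0, 37.4 and 54.0. All fasted libraries were above control, as in 9.77% of genes. Nfil3 was the only member called after 2 h without food. That call was lost in 3 of 4 fits without a replicate (adjusted p up to 0.433) and in the 8 libraries of CT12 alone (0.156), the CT16 call in 2 fits (up to 0.165) and the CT20 call in 1, without male replicate 2 (0.281). The groups had already differed at CT8, with 8.24 ± 3.80 CPM in control and 11.8 ± 3.05 in fasted livers (0.60 log2, adjusted p = 0.205).

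At CT40 the direction of Nfil3 was the opposite. Control livers held 30.7, 32.2, 31.6 and 28.3 CPM, fasted males 37.2 and 30.1, and fasted females 11.6 and 7.03. Nfil3 fell by 0.79 log2 (standard error 0.22, adjusted p = 0.0036) with the 2 females below the control range and the fasted males within or above it, and did not pass without male replicate 2 (adjusted p = 0.101). The female minus male difference of the fasting effect over all times was -0.40 log2 (standard error 0.15, adjusted p = 0.064), which did not pass.

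The balance of activator to repressor can be read as log2 Dbp minus log2 Nfil3 in each library, a difference that compares groups and not the 2 genes. In control livers it went from -5.46 ± 0.25 at CT24 (SD, n = 4) to 4.54 ± 0.49 at CT32. In fasted livers it went from -4.73 ± 0.48 to 3.92 ± 1.18 at the same times. The widest separation was at CT40, with -1.98 ± 0.62 in control and 0.64 ± 1.05 in fasted livers, and control libraries of at most -1.05 against fasted libraries of at least -0.37. At CT40 Dbp was called higher and Nfil3 lower. Only the fasted females were below the control range of Nfil3, and its call did not hold without male replicate 2. The balance also did not overlap at CT24, with control libraries of at most -5.21 and fasted libraries of at least -5.15. How many other gene pairs separate in this way was not counted.

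Bhlhe40 (DEC1), a repressor at E-boxes that also responds to many signals outside the clock, was lower in fasted livers at 8 of 8 times from CT16 to CT44. The fall was largest at CT28. Control livers then held 72.1, 95.9, 71.0 and 57.0 CPM and fasted livers 19.9, 39.8, 19.8 and 17.6. All fasted libraries were below all control libraries, and the difference was -1.63 log2 (standard error 0.22, adjusted p = 3.2e-07). At CT32 control livers held 149, 167, 188 and 147 CPM and fasted livers 67.0, 75.0, 54.9 and 28.6, a difference of -1.58 (adjusted p = 8.8e-07). The groups were separated at 6 of 9 times, all with fasted libraries below, whereas the share of genes separated in this direction was 9.21% at CT16, 9.64% at CT28, 9.12% at CT32, 10.7% at CT36, 14.9% at CT40 and 16.3% at CT44. The CT16 call was lost in 4 of 4 fits without a replicate (adjusted p up to 0.229), those at CT20, CT24 and CT36 in 1, 2 and 1, and those at CT28, CT32, CT40 and CT44 in 0.

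Markers of Kupffer cells, the resident macrophages of the liver, moved in the same direction. All 4 markers fell over CT12 to CT44 (33.6% of genes did), with log2 differences of -0.35 for Clec4f, -0.33 for Vsig4, -0.45 for Cd5l and -0.68 for Adgre1. Some markers of other cell types also fell, such as Lrat of stellate cells (-0.84), Krt19 of cholangiocytes (-0.83) and Ttr of hepatocytes (-0.49). Falls were also called for Kdr (-0.17) and Clec4g (-0.20) of endothelium, Reln of stellate cells (-0.35) and Serpina1c of hepatocytes (-0.48). The same held for Krt7 (-0.47) and Epcam (-0.24) of cholangiocytes and for Cd79a (-0.47) and Ms4a1 (-1.09) of lymphocytes. Apoa1 of hepatocytes (0.80), Pecam1 of endothelium (0.22) and Dcn of stellate cells (0.11) rose, and the remaining markers did not pass. The summed level of the Kupffer cell markers was 177 to 506 CPM in control livers (median 275, n = 36) and 109 to 371 CPM in fasted livers (median 205, n = 36). Their part in the Bhlhe40 difference was not tested.

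Bhlhe41 (DEC2), the paralogue of Bhlhe40, was lower in fasted livers at CT32 and higher at CT40. At CT32 control livers held 12.3, 11.8, 4.65 and 3.45 CPM, males first, and fasted livers 6.27, 5.08, 1.69 and 0.811. Bhlhe41 fell by 1.40 log2 there (standard error 0.35, adjusted p = 0.0038), a call that did not hold without female replicate 2 (adjusted p = 0.066). The groups overlapped. Within each sex the fasted libraries were below the control libraries, a pattern whose share among all genes was not counted. At CT40 control livers held 1.45, 1.59, 0.173 and 0.256 CPM and fasted livers 2.37, 1.54, 1.77 and 1.77. Bhlhe41 rose by 1.68 log2 at this time (standard error 0.41, adjusted p = 0.00082), with fasted females at the level of the fasted males and above both control females. Reads of the antisense neighbour Gm43909 amounted to 0 to 23.1% of those of Bhlhe41 in a library.

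Ciart (CHRONO) had the largest mean change of the 9 members, and its 3 largest differences fell at CT44, CT24 and CT20, when its control level was low. At CT44 control livers held 1.47, 1.26, 0.407 and 0.888 CPM and fasted livers 10.7, 10.5, 18.5 and 12.8. The lowest fasted library was above the highest control library, and Ciart rose by 3.78 log2 (standard error 0.40, adjusted p = 2.9e-10). At CT24 control livers held 0.299, 0.282, 0.188 and 0.446 CPM and fasted livers 2.87, 0.587, 2.43 and 1.61, a rise of 2.60 log2 (adjusted p = 0.0001). It also rose at CT16 (1.74 log2), CT20 (2.35) and CT40 (1.94). All 5 of these calls held in each of 4 fits without a replicate. Fasted libraries were all above control at 6 of 9 times, while the share of genes separated upwards was 9.77% at CT16, 14.8% at CT20, 9.29% at CT24, 10.6% at CT36, 11.7% at CT40 and 13.7% at CT44. At CT28, CT32 and CT36 the differences were 0.91, 0.81 and 0.79 log2 and did not pass (adjusted p = 0.125, 0.075 and 0.062).

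Noct passed at 1 of 9 times. At CT16 control livers held 61.7, 25.1, 78.2 and 39.1 CPM and fasted livers 136, 73.8, 136 and 128. Only fasted male 2 fell inside the control range, and Noct rose by 1.22 log2 (standard error 0.42, adjusted p = 0.029), a call lost in 3 of 4 fits without a replicate. Control libraries of Noct varied severalfold within some times, as at CT20 with 7.74 to 56.9 CPM. At CT36 Noct differed by -0.94 log2 (standard error 0.42, unadjusted p = 0.029), which did not pass after adjustment (adjusted p = 0.090).

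Usp2 rose in the first night. At CT16 control livers held 40.9, 27.9, 51.8 and 30.7 CPM and fasted livers 86.7, 54.9, 63.9 and 71.7, a rise of 0.88 log2 (standard error 0.26, adjusted p = 0.012). At CT20 they held 10.1, 16.1, 18.1 and 17.2 CPM and 37.9, 24.8, 19.2 and 21.6, a rise of 0.74 log2 (adjusted p = 0.028). Neither time showed overlap between the groups, all fasted libraries being above control as in 9.77% of genes at CT16 and 14.8% at CT20. Without a replicate the calls were lost in 3 of 4 and 2 of 4 fits. On the second day Usp2 differed by 0.64 log2 at CT44 (adjusted p = 0.053), and at its peak times the control and fasted means were 84.2 and 94.0 CPM (CT12) and 81.1 and 81.9 CPM (CT36).

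Rhythms were compared with a cosine of 24 h period and a linear change over time in each group, fitted to CT12 to CT44. All 9 members were rhythmic in control livers, compared with 34.8% of 20965 genes, and all 9 in fasted livers, compared with 50.5%. Both groups were called for 24.1% of genes. Peaks in control livers ran from CT8.26 for Bhlhe41 and CT8.97 for Dbp, through CT11.1 for Ciart, CT11.3 for Tef, CT12.3 for Hlf, CT12.4 for Usp2, CT12.7 for Bhlhe40 and CT13.6 for Noct, to CT22.2 for Nfil3. Standard errors of these peaks were 0.24 to 0.79 h. The order between Bhlhe41 and Dbp, among Ciart, Tef and Hlf, and among Hlf, Usp2, Bhlhe40 and Noct is within the error. Nfil3 is the one member peaking in late subjective night.

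The rhythm differed between fasted and control livers in 3 of 9 members, compared with 23.3% of genes. Ciart lost 1.77 log2 of its peak-to-trough size (5.96 to 4.18, 95% interval of the difference -2.83 to -0.71) and peaked 1.25 h later (95% interval 0.459 to 2.05 h, adjusted p = 0.00037). Dbp peaked at CT10.3 instead of CT8.97, 1.35 h later (95% interval 0.604 to 2.09 h), with sizes of 6.17 and 5.27 log2 (adjusted p = 0.0064). Bhlhe41 peaked 2.44 h later (95% interval 1.07 to 3.81 h), at CT10.7, with sizes of 3.28 and 2.93 log2 (adjusted p = 0.023).

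The Ciart difference held in each of 4 fits without a replicate. That of Dbp did not hold without male replicate 1 (adjusted p = 0.078) or male replicate 2 (adjusted p = 0.069), and that of Bhlhe41 held in 0 of 4 (adjusted p from 0.054 to 0.156). Control females held less Dbp than males at CT28, and other clock genes differed there as well. Control male and female means were 126 and 46.3 CPM for Tef, 7.33 and 1.48 for Usp2, and 2.51 and 0.528 for Ciart. Females were higher for Nfil3 (22.2 and 42.4 CPM) and Bmal1 (11.1 and 35.5 CPM). CT28 control values and fitted control rhythms share this limit. The fits were repeated without control CT28 female 2 and without CT28 altogether, both chosen after the data were seen. Adjusted p was then 0.00079 and 0.022 for Dbp, 0.00022 and 0.00011 for Ciart, and 0.0059 and 0.022 for Bhlhe41.

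In the remaining 6 members the rhythm difference did not pass, and the intervals bound it. The peak of Tef moved by 0.43 h (95% interval -0.52 to 1.39 h), that of Usp2 by 0.67 h (-0.30 to 1.64 h) and that of Bhlhe40 by 1.19 h (-0.11 to 2.50 h). Noct differed by 0.58 h (-0.85 to 2.00 h), Nfil3 by -0.50 h (-1.79 to 0.79 h) and Hlf by -0.30 h (-2.45 to 1.85 h). Peak-to-trough sizes in control and fasted livers were 2.34 and 2.02 log2 for Tef, 3.92 and 3.60 for Usp2, 1.38 and 1.75 for Bhlhe40, 2.73 and 2.99 for Noct, 2.02 and 2.16 for Nfil3 and 0.60 and 0.64 for Hlf.

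**Figure D3:**
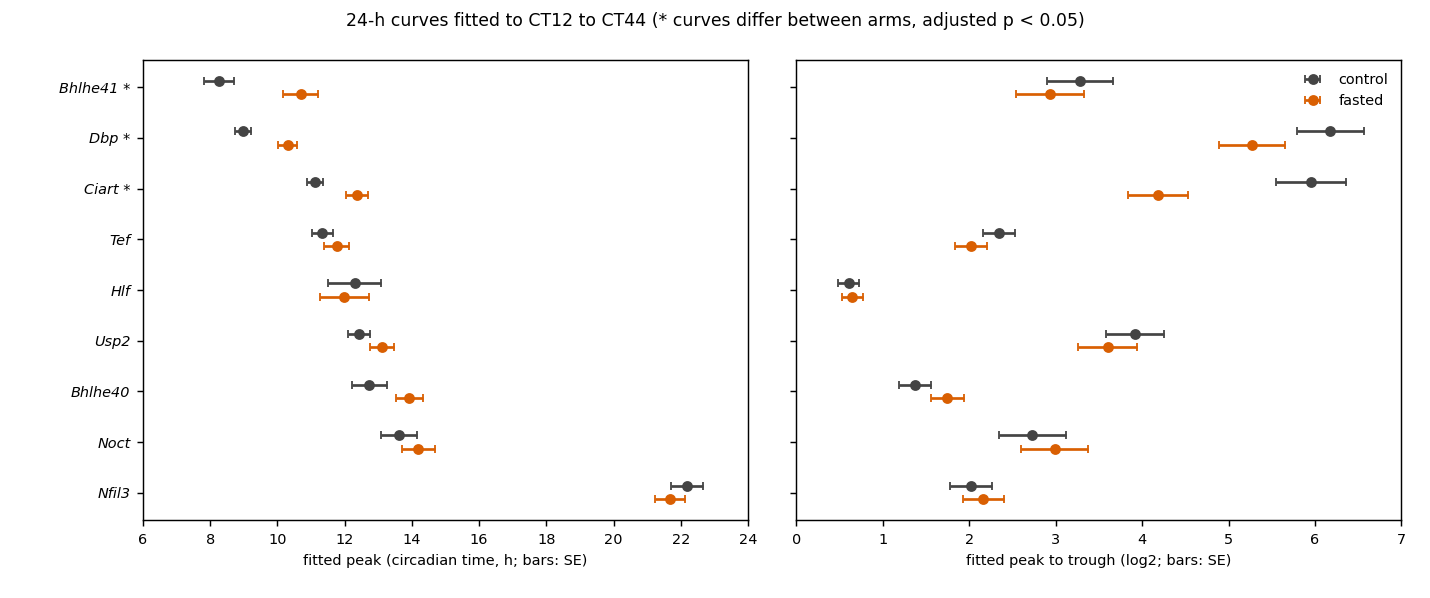
Fitted peak time (CT, h) and peak-to-trough size (log2) of the 9 members in control and fasted livers, with error bars of 1 standard error and asterisks where the curves differ. Bhlhe41, Dbp and Ciart peak later in fasted livers, Ciart is reduced from 5.96 to 4.18 log2, and Nfil3 stands apart near CT22.

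Sexes differed in several members in control livers. Of the 9, 4 were lower in females (19.0% of genes) and 1 was higher (20.3% of genes), 5 in all compared with 39.3% of genes. Bhlhe41 was the exception in size, at 1.91 log2 lower in females (difference -1.91, standard error 0.18, adjusted p = 3.9e-12). Both males exceeded both females at 10 of 10 control times, a pattern found in 2.02% of genes. In the 10 fasted groups this held at 8 times, which 4.72% of genes reached, and the other 2 were CT28 and CT40. Dbp was lower in females by 0.51 log2 (difference -0.51, adjusted p = 0.016), Usp2 by 0.32 (difference -0.32, adjusted p = 0.031) and Nfil3 by 0.29 (difference -0.29, adjusted p = 0.015), while Bhlhe40 was 0.25 log2 higher (adjusted p = 0.035). These 4 calls were lost in 2 or 3 of 4 fits without a replicate, and that of Bhlhe41 in 0.

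**Figure D4:**
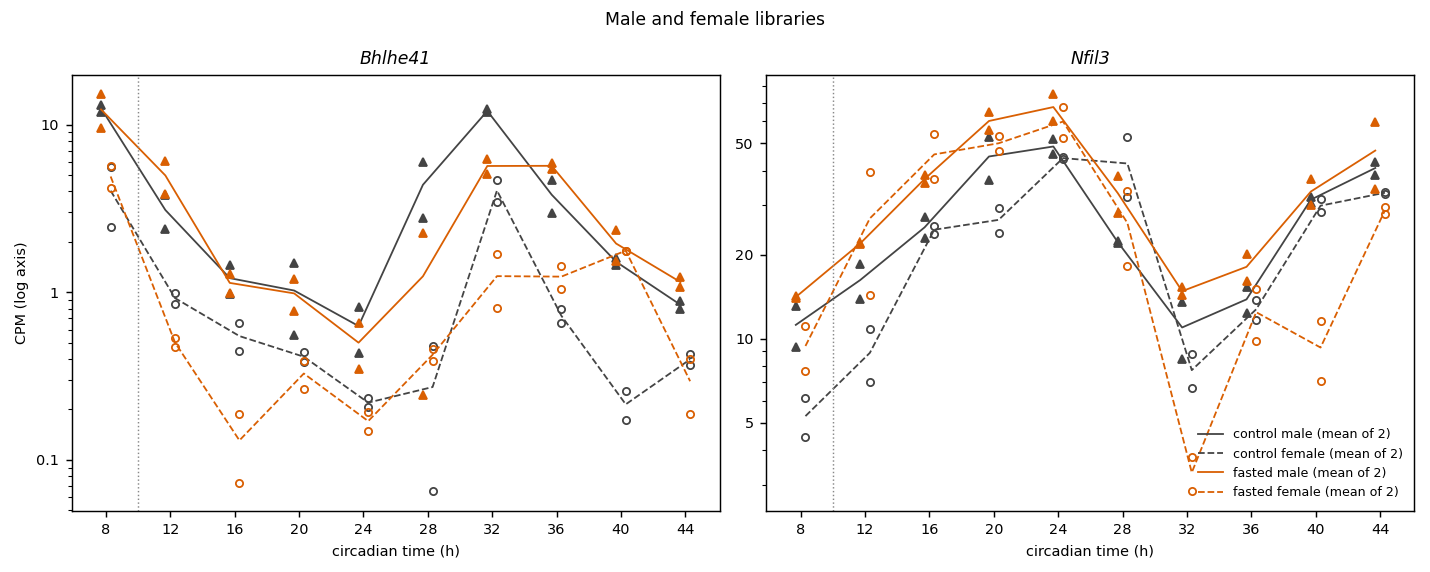
Bhlhe41 and Nfil3 in each liver (CPM, log axis) against circadian time in hours, by sex and feeding group. Male points of Bhlhe41 lie above female points at all 10 control times, and the 2 fasted females at CT40 have 1.77 CPM each and low Nfil3 of 11.6 and 7.03 CPM.

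The fasting effect itself did not differ between the sexes for any member by edgeR, compared with 12.3% of genes. However, Nfil3 had an unadjusted p under 0.05 and was called with the replicate number in the fit. When genes of low count were kept, 4 members were called, and the 12.3% does not apply to that fit. The rhythm did not differ by sex in any member in either feeding group (lowest adjusted p of 0.803 in control and 0.781 in fasted livers), compared with 0.0143% and 0.00477% of genes. These shares do not apply when genes of low count were kept. That fit called 7 members and 803 genes in control livers, and 4 members and 754 genes in fasted livers.

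Exon usage was read from counts per exon bin, the smallest segments into which the annotated exons of a gene are divided. Of the 9 members, 1 was called, compared with 14.3% of 13889 genes. Tef was that member (adjusted p = 5.5e-27). Its bin 5 held 0.975% ± 0.292 of the gene's counts in control livers (SD, n = 36) and 0.539% ± 0.390 in fasted livers, a relative change of -0.84 log2 (adjusted p = 4.4e-27). Bin 4 went from 0.654% to 0.359% (-0.78 log2, adjusted p = 1.1e-19), whereas bin 12 went from 0.335% to 0.543% (0.45 log2, adjusted p = 9.8e-07). Bin 22, which holds the most Tef counts, had 45.8% and 45.3%.

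The Tef bins differed with time as well. Bin 5 had like shares in both groups at CT8 (1.13% and 1.16%) and at CT12 (1.19% and 1.20%). At CT20 it held 0.781% ± 0.385 in control livers and 0.125% ± 0.083 in fasted livers (n = 4), and at CT44 0.700% and 0.211%. At CT32, near the peak of Tef, the shares were 1.21% and 0.935%. These bins are thin, with a mean of 85.4 counts per control library and 51.2 per fasted library for bin 5. At CT20 the means for bin 5 were 43.5 and 4.5 counts, and at CT44 33.25 and 14. Over all times bin 4 had means of 54.9 and 33.4 counts and bin 12 of 25.1 and 38.8. Gene counts of the antisense neighbour Gm17597 amounted to 0 to 0.53% of those of Tef in a library. Their part in the Tef bins was not tested. Tef had 23 bins, of which 15 were tested, and Tef was called in each of 4 fits without a replicate. Hlf came next among the members (adjusted p = 0.052), and for the other 7 the adjusted p was 0.977 or above. Rows of the exon table that named no gene, or several, held 8.28% to 25.9% of the counts. In the fasted CT40 group 3 exon columns matched other libraries of that group in the gene table, and the group was therefore used as a whole.

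**Figure D5:**
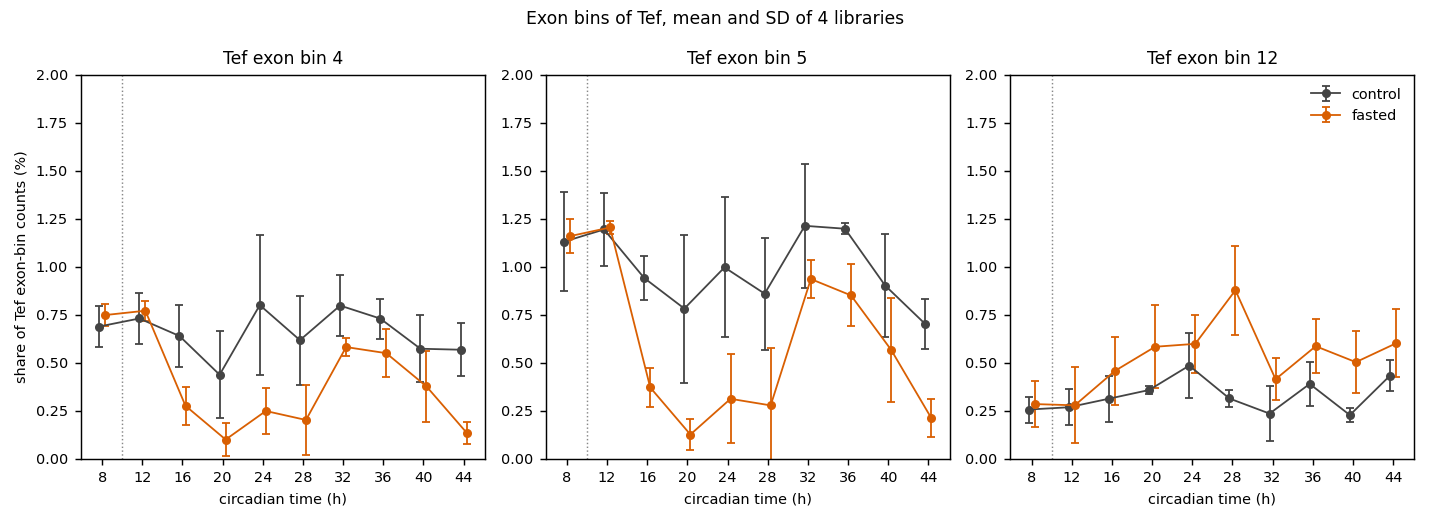
Share of the Tef exon counts (percent) held by bins 4, 5 and 12 against circadian time in hours in control and fasted livers (means with SD, n = 4). Fasted bins 4 and 5 lie below control from CT16, with a smaller gap from CT32 to CT40 than at CT20, and fasted bin 12 lies above control.

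The core clock gives the setting for these members. Of 12 core clock genes, 6 rose (28.8% of all genes), 4 fell (33.6%) and 2 did not pass over CT12 to CT44, with a median of 0.13 log2 compared with -0.03 for all genes. Per1, a period gene that also answers to hormonal signals, rose by 1.45 log2, and the REV-ERB repressors Nr1d1 and Nr1d2 rose by 0.95 and 0.82. Per2 fell by 0.65 log2 and Npas2, a partner of BMAL1, by 0.70 (differences -0.65 and -0.70). Bmal1 differed by 0.04 (adjusted p = 0.756). All 12 were rhythmic in both groups, and the rhythm differed in 6 of them (23.3% of all genes). Among these, Nr1d2 peaked 2.42 h later in fasted livers, Per1 2.21 h later and Npas2 0.74 h later. Rora peaked earlier (difference -3.19 h, standard error 1.17 h). The peak differences of Cry2 and Nr1d1 were 1.37 h (standard error 0.89 h) and 0.26 h (standard error 0.40 h). Peak-to-trough size was smaller in fasted livers for Nr1d1 (6.21 to 3.52 log2), Per1, Nr1d2 and Npas2, and larger for Cry2 and Rora.

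Known targets of the PAR bZIP factors, including detoxification enzymes and their cofactors, were read from a list of 10. Of these, 6 rose (28.8% of all genes), 2 fell (33.6%) and 2 did not pass, with a median of 0.74 log2. Por, the electron donor of the microsomal cytochromes P450, rose by 1.66 log2 (standard error 0.064), and its peak moved from CT12.1 to CT16.2, 4.07 h later (95% interval 3.13 to 5.01 h). Nr1i3, which encodes the xenobiotic receptor CAR, rose by 0.83 and Alas1, the first enzyme of haem synthesis, by 0.64. Cyp2b10, a CAR-responsive P450, rose by 1.91, and the acyl-CoA thioesterases Acot3 and Acot4 rose by 2.12 and 1.25. Cyp7a1, the rate-limiting enzyme of bile acid synthesis, fell by 1.74 (difference -1.74), and Aldh1a1 by 0.37. Cyp2a4 and Cyp2a5 differed by -0.24 and -0.19 log2 (adjusted p = 0.073 and 0.126), and reads can be split between these near-identical copies. The fasting effect differed between the sexes in 4 of the 10, the effect being lower in females in all 4 (7.26% of genes). The differences were -3.34 log2 for Acot3, -1.20 for Cyp2a4, -1.19 for Acot4 and -0.77 for Cyp2a5. In control livers these genes were higher in females (20.3% of genes), by 4.90 log2 for Acot3, 7.80 for Cyp2a4, 1.57 for Acot4 and 0.43 for Cyp2a5. The list was rhythmic in 5 of 10 genes in control livers (34.8% of all genes) and 7 of 10 in fasted livers (50.5%), and 3 differed in rhythm (23.3%), namely Por, Cyp7a1 and Acot4.

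Genes whose profile was most like a member were ranked by Pearson's r of log2 CPM over the 20 means of feeding group and time, among 11576 genes. These means share libraries and depth scaling, and r is given as a description. Tef was most like the period gene Per3 (r = 0.961) and then Wee1, a kinase of the cell cycle (0.925). Dbp was most like Slc5a6 (0.939), Bhlhe41 like Sipa1l2 (0.949), Nfil3 like Fundc1 (0.937) and Ciart like A930033H14Rik (0.973), with Gys2, the hepatic glycogen synthase, second for Ciart (0.939). Hlf was most like another member, Usp2 (0.867), which was itself most like Efhd2 (0.943). Bhlhe40 was most like Slc25a37, a mitochondrial iron importer (0.932), with Vegfa among its 3 nearest (0.903). Noct was most like Gm38357 (0.945), a gene within the span of Noct on the same strand, and then Nampt, which makes a precursor of NAD (0.935). Between members, r was 0.914 for Dbp and Tef, 0.920 for Dbp and Bhlhe41 and -0.908 for Dbp and Nfil3.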

How the data were processed

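Polyadenylated liver RNA was sequenced in 80 libraries. Per the labels, the authors trimmed reads with Trimmomatic, aligned them with HISAT2 to GRCm39 and used DESeq2. Versions and the strand setting of the counting are not given in the sources used here. The deposited values are raw counts per gene and per exon bin, with whole numbers and no normalization. The article describes no tests for these data, so the design follows the submitters' labels.

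Counts were filtered with filterByExpr, scaled by TMM and tested with the quasi-likelihood F test of edgeR 4.0.16 (limma 3.58.1, R 4.3.3), with Benjamini-Hochberg adjustment over all tested genes and a threshold of 0.05. One model held every combination of feeding group, time and sex, sexes being weighted equally. Rhythms used a cosine and sine of 24 h with a linear term, and their intervals are 95% by the delta method. Exon usage used diffSpliceDGE with Simes p-values per gene. Scripts were tested on simulated data. CPM are counts scaled by TMM library size, given as mean ± SD, and log2 CPM used a prior count of 2.

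Samples of one group are taken as separate animals, and p-values measure the spread between them. Replicate numbers did not pair samples (r above 0.1 in 1 of 20 pairs of groups, from -0.057 to 0.249). No 2 libraries of a group agreed within sampling noise. The genes named were the members, 2 lists (core clock and PAR bZIP targets), the 3 nearest profiles per member, of which some are named, and at most 3 exon bins per member. Members and lists were chosen with earlier results of these data known. Positions come from GRCm38 annotation, as no GRCm39 annotation was used here. Alternatives were a fit without the low-count filter, DESeq2 1.42.0 and its size factors, a replicate block, libraries of each time alone, a 1.5-fold minimum, other rhythm models, an exon minimum of 10 counts, and omission of each replicate.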

Additional observations from a re-analysis of the deposited data

Results flagged for a closer look

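Within the groups of 4 livers, 8 member values stood apart from the other 3 of their group by more than Dixon's 95% limit. A total of 180 groups was examined, and chance alone is expected to give 9.

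Dbp was 20.7 CPM in control CT16 male 1 (others 6.41 to 7.71) and 14.8 CPM in control CT40 male 1 (others 6.03 to 6.43). Hlf was 28.5 CPM in fasted CT40 female 2 (others 67.6 to 70.7). Bhlhe40 was 115.8 CPM in control CT40 male 1 (others 177 to 189), 39.8 CPM in fasted CT28 male 2 (others 17.6 to 19.9) and 57.3 CPM in fasted CT36 female 2 (others 103 to 107). Noct was 73.8 CPM in fasted CT16 male 2 (others 128 to 136), and Usp2 was 47.5 CPM in fasted CT36 female 2 (others 89.8 to 97.2). Control CT40 male 1 and fasted CT36 female 2 each appear for 2 members.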

How the results depend on the processing

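Ciart and Bhlhe40 kept their direction and their call over CT12 to CT44 under each alternative run, and rhythmicity of all 9 members held in both feeding groups. The mean of Hlf reversed in 1 fit without a replicate, with a range of -0.0068 to 0.054 log2. With at least a 1.5-fold change required, 2556 of 21187 genes and 2 of 9 members were called over CT12 to CT44.

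Keeping genes of low count raised several counts, and the cause was not tested. Calls at CT8 went from 292 to 853 genes and from 0 to 2 members, member calls over the 9 times from 27 to 46, members with a rhythm difference from 3 to 7, and members with a sex difference of the fasting effect from 0 to 4. The sex difference of the control rhythm went from 3 to 803 genes and 7 members, and that of the fasted rhythm from 1 to 754 genes and 4 members. The fasted figure was 2 genes with DESeq2 size factors and 0 without CT28. Exon usage was called in 946 genes instead of 1985 with at least 10 counts in every library.

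At CT8, 1 gene was called with the replicate block, 12 without control CT8 female 2 and 0 in the 8 libraries alone. The block gave 1 member with a sex difference of the fasting effect (Nfil3, adjusted p = 0.021), ended the rhythm difference of Bhlhe41 (adjusted p = 0.067) and the CT16 call of Bhlhe40 (adjusted p = 0.068), and brought Noct in the joint test (adjusted p = 0.0017), Dbp at CT24 (adjusted p = 0.048) and CT32 (0.047), Ciart at CT36 (0.032) and Noct at CT36 (0.019) past the threshold. Replicate numbers did not pair the samples.

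Omission of each replicate, or of control CT28 female 2, gave 1 to 2198 genes at CT8, 25534 to 47014 gene calls (48802 with all libraries) and 16 to 30 member calls over the 9 times, 8466 to 12954 genes and 5 to 8 members in the joint test, and 4 to 6 members in the mean. Rhythm differences covered 2617 to 4904 genes (4880 with all) and 1 to 3 members. Sex differences of the fasting effect covered 252 to 2460 genes (2607 with all) and 0 to 1 members, and sex differences in control livers 1 to 5 members (5 with all). Sex differences of rhythm covered 0 to 2 genes in control (0 to 1 without a whole replicate) and 0 to 4 in fasted livers, and exon usage 1083 to 1368 genes, with the fasted CT40 group kept whole. The sex difference of rhythm, the omission of CT28 and that of single libraries were added after the data were seen. Depth limits Bhlhe41 and Ciart at their troughs, where libraries held under 1 CPM.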
